A study of Mus musculus with 2 samples.

Results

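Interferon-stimulated genes are the genes that cells switch on when interferon binds its receptors. The 44 members described here were given as a list of names that was chosen with earlier results of these data known, and all 44 were found among the 33696 genes listed for both libraries. They were grouped by role into 4 RNA and DNA sensors, 4 Ifit genes, 5 Oas genes, 2 Mx genes, the 2 genes of the Isg15 system, 4 transcription factors, 7 GTPases, 10 other antiviral genes, 3 genes of the Parp group and 3 genes of antigen processing. All 44 had at least 1 unique molecular identifier (UMI, 1 captured RNA molecule) in the fibroblasts of both stages.

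The data are 2 single-cell RNA-seq libraries of mammary stroma from wild-type C57BL/6 female mice, 1 from puberty (4-week-old) and 1 from adulthood (9-week-old virgins). The labels give 2 females per stage but also speak of one and the same mouse, so the number of animals behind each library could not be settled, and the study's methods give a slightly older pubertal age than the labels. Cells were sorted as Lineage-negative and CD24-negative, where the lineage antibodies of the study (CD31, CD45 and TER-119) take out endothelial and blood cells and CD24 takes out epithelium. Both libraries are marked replicate 2. Each stage has 1 library, so no difference below has a replicate check, no test was made, and stage, animals, sort and library cannot be told apart. Intervals are 95% and cover counting error only.

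Type I interferons act through Ifnar1 and Ifnar2, which activate Jak1 and Tyk2, and a complex that holds Irf9 then binds a DNA element built from repeats of GAAA. Interferon gamma acts through Ifngr1 and Ifngr2 and works through another element, TTC and GAA separated by a short gap, found at Irf1 and many GTPase genes. In connective tissue, fibroblasts keep part of this programme on without infection, and it includes sensors of viral RNA, proteins that block viral growth and enzymes that cut and load antigens.

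Promoter sequence was taken from RefSeq windows on GRCm38.p6, reaching from 250 bases before to 50 bases after each start of transcription. A window was found for 32 of the 44 members, and the other 12 are named only, namely Dhx58, Zbp1, Oas2, Mx1, Mx2, Usp18, Iigp1, Gvin1, Rtp4, Ifi27l2a, Parp9 and Parp14. A pair of GAAA copies with any 2 bases between them, on either strand and so also as a pair of TTTC, stood in the windows of 18 of 32 members (56.3%) and of 3.99% of the 27025 genes with a window. TTC and GAA with any 3 bases between them stood in 9 of 32 members (28.1%) and in 9.55% of all genes. The windows of all 5 GTPase genes used below held the first motif, against 5 of the 8 Ifit and Oas genes with a window. The stretches below lie before the start and are shown because they belong to the members whose levels the results turn on, with capitals marking the first motif, or the second in Irf1. They are written 5′ to 3′ on the strand of the gene.
Ifit1, chr19:34640759-34640858, plus strand: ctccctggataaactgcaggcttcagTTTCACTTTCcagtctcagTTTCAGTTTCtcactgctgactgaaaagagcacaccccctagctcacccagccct
Ifit3, chr19:34583362-34583461, plus strand: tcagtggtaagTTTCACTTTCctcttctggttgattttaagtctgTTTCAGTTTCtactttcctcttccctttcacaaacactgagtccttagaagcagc
Isg15, chr4:156200830-156200929, minus strand: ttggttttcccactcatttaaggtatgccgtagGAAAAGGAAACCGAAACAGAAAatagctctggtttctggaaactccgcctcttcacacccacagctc
Rsad2, chr12:26456518-26456617, minus strand: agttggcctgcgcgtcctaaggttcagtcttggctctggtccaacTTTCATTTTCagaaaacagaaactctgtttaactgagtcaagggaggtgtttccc
Ddx60, chr8:61927987-61928086, plus strand: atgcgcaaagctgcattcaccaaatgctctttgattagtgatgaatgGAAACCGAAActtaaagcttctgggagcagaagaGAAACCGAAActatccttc
Irgm1, chr11:48871421-48871520, minus strand: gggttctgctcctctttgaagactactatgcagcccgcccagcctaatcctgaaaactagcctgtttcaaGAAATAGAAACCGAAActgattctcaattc
Igtp, chr11:58199456-58199555, plus strand: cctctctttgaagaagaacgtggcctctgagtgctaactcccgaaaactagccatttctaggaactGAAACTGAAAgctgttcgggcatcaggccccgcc
Bst2, chr8:71537542-71537641, minus strand: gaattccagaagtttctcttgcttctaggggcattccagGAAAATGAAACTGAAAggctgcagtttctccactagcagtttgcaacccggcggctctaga
Irf1, chr11:53769879-53769978, plus strand: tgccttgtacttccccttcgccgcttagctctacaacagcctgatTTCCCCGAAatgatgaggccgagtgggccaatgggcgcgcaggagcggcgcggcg
Isg15 held 3 overlapping copies of the first motif in 1 run, while Ifit1, Ifit3, Ddx60, Irgm1 and Bst2 held 2 and Rsad2 and Igtp held 1. The window of Irf1 held the second motif and not the first, and in Bst2 and Igtp the second motif also occurred, in Bst2 overlapping the first. A match describes letters and is not a bound site.

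The libraries held 21688 and 23183 barcodes with medians of 11726 and 10781 UMIs, and 145 barcodes occurred in both. Cells with at least 500 genes and at most 10% mitochondrial UMIs were kept, 21534 at puberty and 22972 in the adult, of which 18878 and 20999 carried Pdgfra and are called Pdgfra+ cells. Their fibroblast label fitted the markers, with Dcn at 7843 and 11207 CPM (UMIs of a gene per 1000000 UMIs of the summed cells), whereas Ptprc, the defining gene of leukocytes, gave 1 and 4 UMIs and Cd3e none. Other genes of that immune list were detected, Cd68 with 256 and 235 UMIs, Cd79a with 207 and 181, Lyz2 with 46 and 47 and C1qa with 14 and 26. The list summed to 2.21 and 1.99 CPM. Siglech, a marker of plasmacytoid dendritic cells, which make much interferon, gave no UMI. The other genes of the plasmacytoid list, Ccr9 and the member Bst2, were detected. The heat shock genes Hspa1a and Hspa1b differed between the libraries, at 46.9 and 36.8 CPM at puberty against 248 and 295 CPM in the adult. All 6 genes of that stress list were detected, with summed levels of 15273 and 19895 CPM, and their part in the stage differences was not tested.

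Most members were lower in adult than in pubertal Pdgfra+ cells, mostly by less than 2-fold. Together the 44 took 4256 CPM at puberty and 3377 CPM in the adult. Of 38 members at 10 CPM or more in at least 1 library, 32 were lower and 6 higher in the adult, and the counting interval of the ratio excluded 1 for 30 and 6 of them. The median log2 ratio of adult to puberty was -0.34, beside 0.13 over the 8645 genes that passed the same limit, of which 32.8% were lower. Only Rsad2 was lower by 2-fold or more, as were 1.86% of all genes, and no member was higher by 2-fold, as were 4.40% of all genes. Over the alternatives the number lower by 2-fold or more ranged from 0 to 3, counted for members only. The 6 members under the limit were Dhx58, Oasl1, Oas3, Mx1, Gvin1 and Ifi44. Of these Ifi44 was higher in the adult, at 2.08 and 3.96 CPM, and the other 5 were lower, Gvin1 at 9.62 and 7.09 CPM, Oasl1 at 8.48 and 5.95 CPM, Dhx58 at 6.77 and 5.07 CPM, Mx1 at 4.37 and 3.08 CPM and Oas3 at 1.21 and 0.691 CPM. Mx1 carries a deletion in C57BL/6 mice and makes no working protein there.

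**Figure D1:**
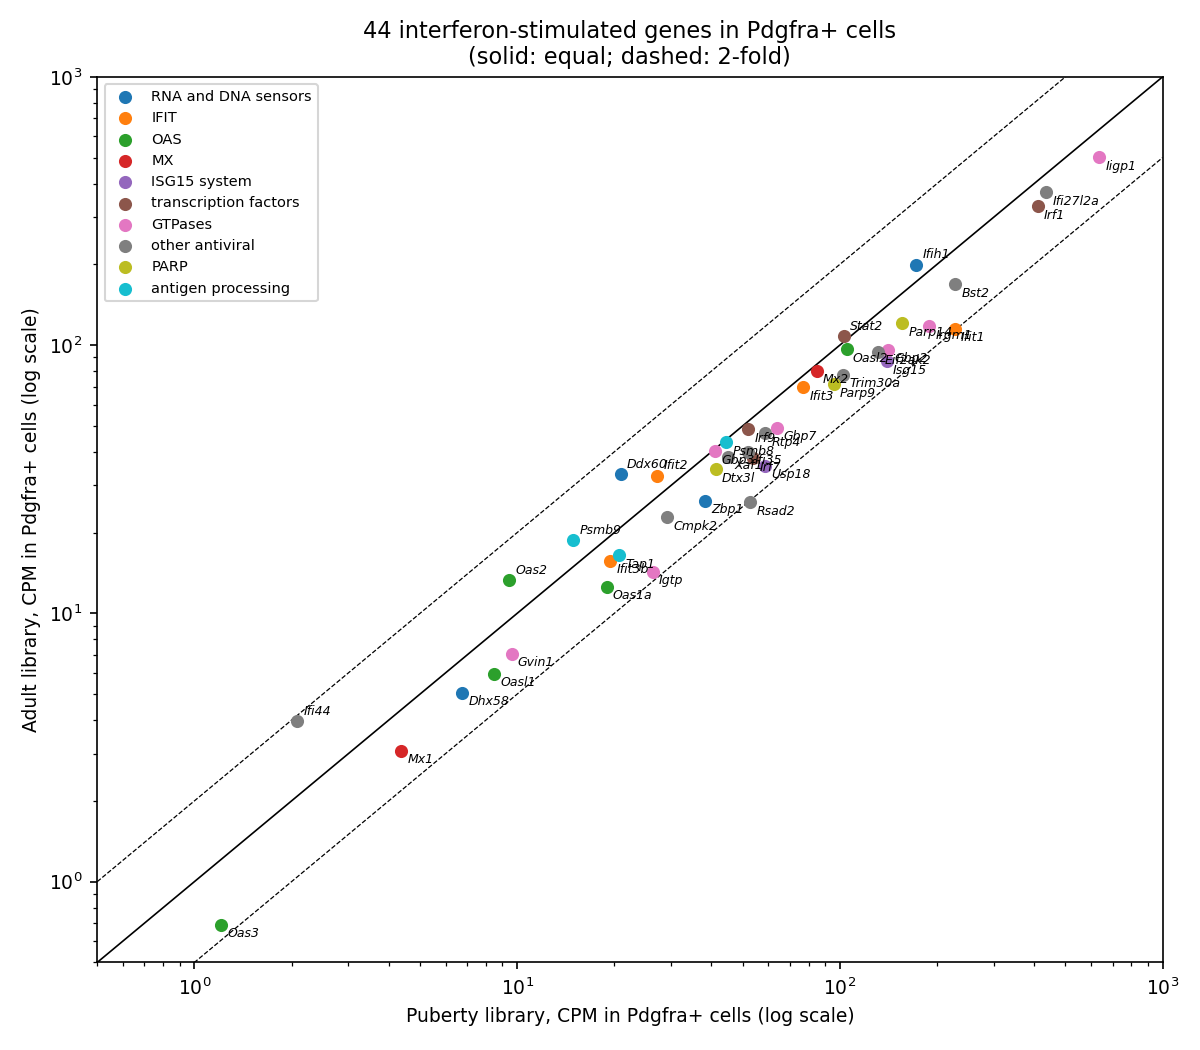
Level of each of the 44 genes in Pdgfra+ cells of the puberty library (x axis, CPM, log scale) and the adult library (y axis, CPM, log scale), coloured by role, with 1 point per gene and 1 library per stage. The solid line is equality and the dashed lines 2-fold, and most points lie between equality and the lower dashed line, with Rsad2 just past it at 52.7 and 25.9 CPM.

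The largest differences towards puberty were in antiviral effectors and a GTPase. Rsad2, the antiviral enzyme viperin, stood at 52.7 CPM at puberty and 25.9 CPM in the adult, a ratio of 0.493 (0.478 to 0.508). Its log2 ratio was 0.010 when the kinds of fibroblast were given equal weight, the only 1 of 13 alternatives that turned it. That alternative gave full weight to 15 and 20 Ccn5 cells, and without them the log2 ratio stayed below 0. Ifit1, which binds foreign RNA at its end, stood at 227 and 115 CPM, a ratio of 0.505 (0.498 to 0.513). Igtp, an immunity-related GTPase, stood at 26.3 and 14.3 CPM (ratio 0.543). Irgm1 and both genes of the Isg15 system followed, all lower in the adult. Isg15, a ubiquitin-like protein attached to other proteins, was at 139.6 and 87.2 CPM (ratio 0.624), and Usp18, which removes it and dampens the type I receptor, was at 58.7 and 35.5 CPM (ratio 0.604).

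The 6 members that were higher in the adult came from several groups. Ddx60, a helicase of RNA sensing, was at 21.0 and 33.2 CPM, a ratio of 1.58 (1.53 to 1.64). Oas2, which makes the oligoadenylate that activates RNase L, was at 9.43 and 13.3 CPM (ratio 1.41), so it passed the limit only in the adult library. Psmb9, a subunit of the immunoproteasome, was at 14.9 and 18.7 CPM (ratio 1.25). Ifit2, Ifih1 and Stat2 had smaller ratios of 1.20, 1.16 and 1.05, and that of Stat2 turned below 1 under another scaling of the libraries (log2 -0.07 with TMM factors), while that of Ifih1 turned (log2 -0.043) with equal weight of the kinds of fibroblast other than Ccn5 cells. The Ifit genes thus differed in direction, with Ifit2 at 27.2 and 32.6 CPM and Ifit3 at 76.9 and 69.8 CPM.

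By role, the GTPases, the other antiviral genes, the Parp group and the Isg15 system were each lower in the adult in all members that passed the limit. The 6 GTPases had ratios from 0.543 to 0.979, and the interval for Gbp3 included 1 (0.952 to 1.01). The most abundant member of all was Iigp1, an immunity-related GTPase that acts on the vacuoles of intracellular parasites, with 637 and 501 CPM. Irgm1, a regulator of the same family, was at 189 and 117 CPM, and Gbp2, a guanylate-binding protein, at 141 and 96.3 CPM. Its relative Gbp7 was at 63.7 and 49.2 CPM and Gbp3 at 41.1 and 40.3 CPM. The 9 other antiviral genes had ratios from 0.493 to 0.854, among them Bst2, which tethers budding virus to the cell, at 228 and 168 CPM. The highest of that group was Ifi27l2a, a small membrane protein, at 435 and 371 CPM. Eif2ak2, the kinase PKR that halts translation when it meets double-stranded RNA, was at 131 and 94.5 CPM (ratio 0.719), and Trim30a, a tripartite motif protein, at 102 and 77.7 CPM. Rtp4, Ifi35, Xaf1 and Cmpk2 lay between 22.8 and 58.7 CPM, with ratios from 0.771 to 0.851. The 3 genes of the Parp group had ratios from 0.747 to 0.834, and Parp14, which adds ADP-ribose to proteins, was the highest at 156 and 121 CPM.

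The remaining groups were mixed or nearly level. Irf1, the transcription factor of the interferon gamma arm, was at 410.0 and 329 CPM (ratio 0.803), and Irf7, which amplifies type I interferon, at 53.9 and 37.9 CPM (ratio 0.703). Irf9, the DNA-binding part of the type I complex, was nearly level at 52.0 and 48.6 CPM. Oasl2, an oligoadenylate synthetase-like protein and the most abundant Oas gene, was at 105.0 and 96.5 CPM, and Mx2, a dynamin-like antiviral GTPase, at 84.8 and 80.4 CPM. Among the antigen processing genes Psmb8, another immunoproteasome subunit, was the highest, at 44.4 and 43.4 CPM with an interval of the ratio that included 1, and Tap1, which carries peptides to MHC class I, was at 20.8 and 16.5 CPM. Ifih1, the sensor of long double-stranded RNA, was the most abundant sensor at 173 and 199 CPM, and Zbp1, which recognises the left-handed form of nucleic acids, went the other way at 38.3 and 26.2 CPM.

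The median stage difference was near 0 with equal weight of the kinds of fibroblast, but not once a few Ccn5 cells were left out. Equal weight was given to the cells in only 1 of the 6 subsets defined below, by subset, and to the cells in none. Cells in more than 1 subset, 32.5% and 36.7% of Pdgfra+ cells, were left out. The median log2 ratio was then -0.04 and 21 members were lower, but that average gave full weight to 15 and 20 Ccn5 cells in no other subset. Without them it was -0.33, with 30 members lower. The share of all genes was not computed for these weightings. Ifi27l2a turned to a log2 ratio of 0.11 with equal weight and 0.088 without Ccn5 cells, and Psmb8 to 0.25 and 0.084. TMM scaling moved every log2 ratio by -0.14 and the median to -0.49.

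Subsets were defined within Pdgfra+ cells by markers. Pi16+ Dpp4+ cells, whose markers are those of a progenitor-like fibroblast state, numbered 13983 at puberty and 8853 in the adult, cells with Gdf10 or Fmo2 7462 and 10066, cells with Thbs4 or Bmp5 927 and 3117, cells with at least 2 Fabp4 UMIs 1779 and 2553, Crabp1 cells 289 and 2672, and cells with at least 2 Ccn5 UMIs 817 and 622. The gates overlap: 32.5% and 36.7% of Pdgfra+ cells met more than 1, and 98.2% and 96.8% of Ccn5 cells also met another. Mural cells, the pericytes and smooth muscle of vessels, were Pdgfra-negative cells with Myh11 or Rgs5 and numbered 783 and 457. A UMI of Pi16 and of Dpp4 together was also seen in 4.09% (2.81% to 5.72%) and 1.97% (0.904% to 3.71%) of mural cells, against 74.1% and 42.2% of the deeper Pdgfra+ cells, and 2 UMIs of each in 70.2% and 36.1% of Pdgfra+ cells.

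Among the 6 subsets of Pdgfra+ cells, which leave out mural cells, Crabp1 cells had the least of the programme at both stages. Of 37 members that passed the limit in both libraries, all 37 were lower in Crabp1 cells than in the other Pdgfra+ cells of the same library, and 19 were lower by 2-fold or more in both, against 4.84% of 8448 genes, of which 29.7% were lower in both. The median log2 ratio over the members was -1.18, beside 0.12 over all genes. Crabp1 cells had the lowest level of the 6 subsets for 41 of 44 members in both libraries. That rank includes members under 10 CPM, and the share of all genes was not computed for it. Ifit1 stood at 47.7 CPM in pubertal Crabp1 cells against 231 CPM in the others, and at 29.0 against 128 CPM in the adult. Ifit3b, a near-identical copy of Ifit3 whose counts are uncertain for that reason, stood at 3.07 against 19.7 CPM and at 5.73 against 17.2 CPM, and Oas1a at 4.48 against 19.2 CPM and at 4.22 against 13.8 CPM. Ifit3b and Oas1a passed the limit only through the other cells. The members nearest to parity were Irf1, at 326 against 411 CPM and 254 against 341 CPM, Ifit2 and Tap1.

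**Figure D2:**
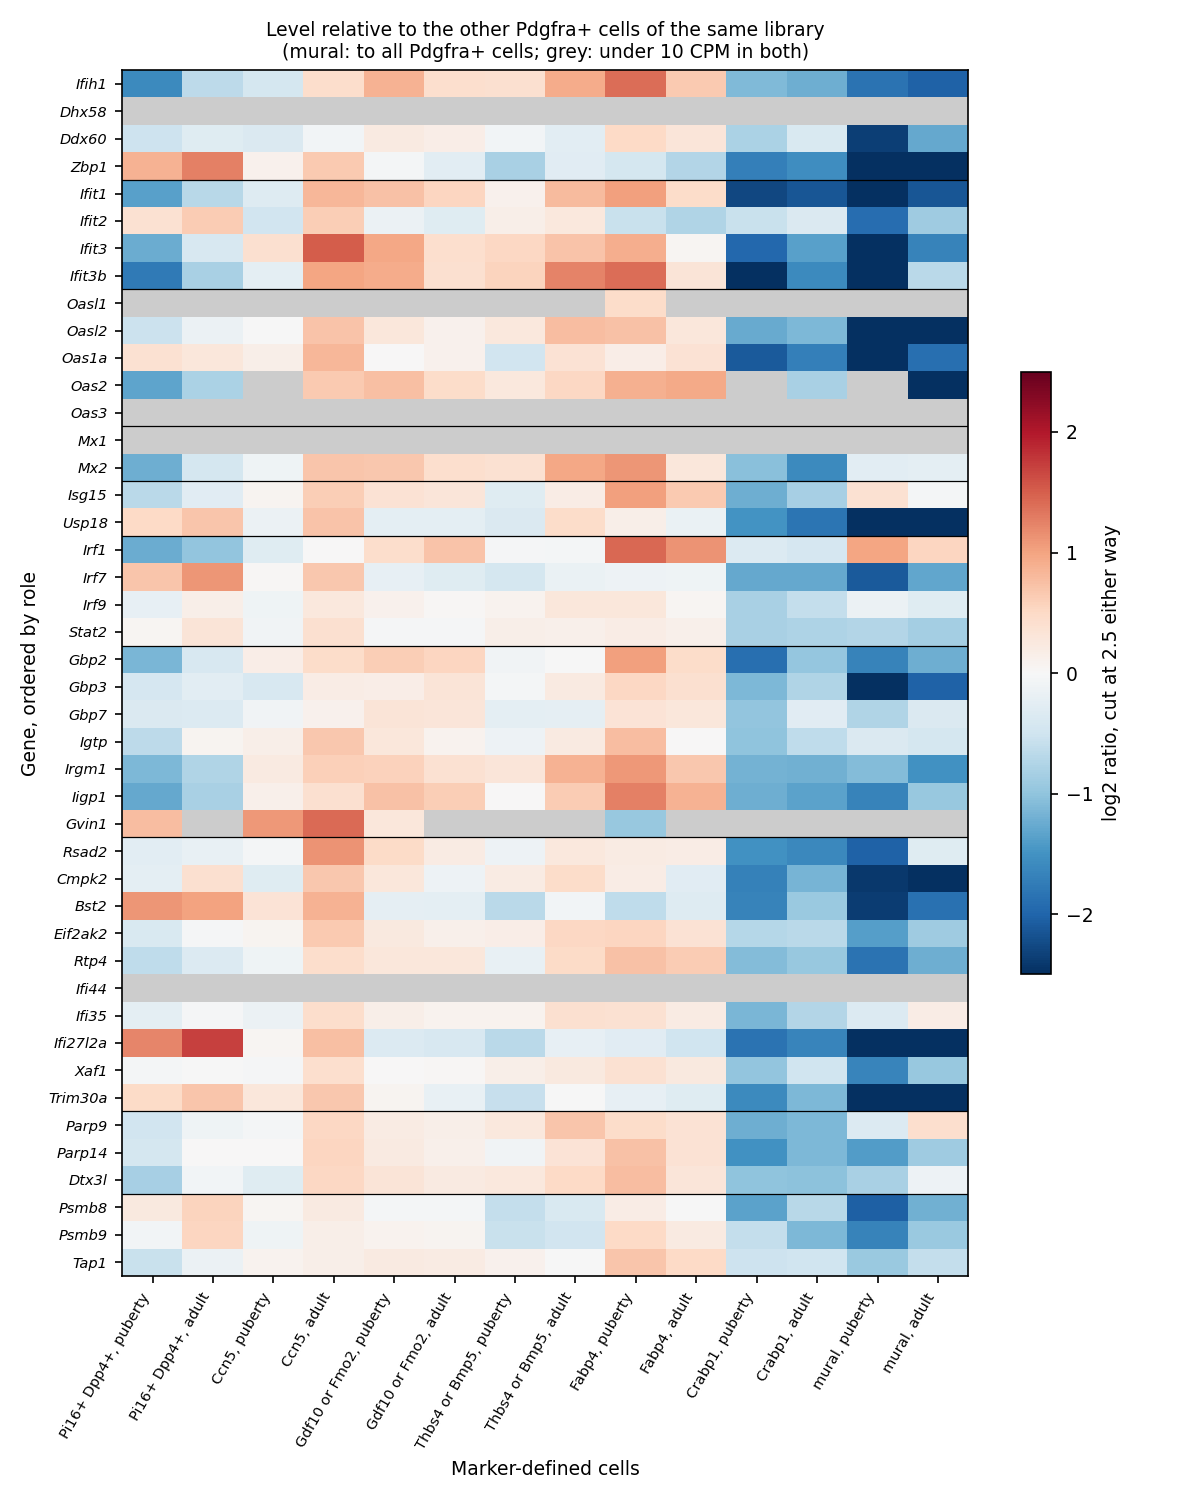
Log2 ratio of each gene (rows, by role) in marker-defined cells to the other Pdgfra+ cells of the same library, with 1 column per cell group and stage (mural cells against all Pdgfra+ cells), red higher, blue lower and grey under 10 CPM in both. The Crabp1 columns are blue for every gene that passed the limit, and the mural columns are blue for most, with Irf1 red in both.

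Fabp4 cells had the most at puberty. Fabp4 encodes a fatty acid carrier of cells on the way to adipocytes. It is not particular to such cells here, since mural cells held it at 2916 and 2773 CPM, beside 119 and 110 CPM in all Pdgfra+ cells. Of 38 members, 29 were higher in Fabp4 cells than in the other Pdgfra+ cells in both libraries, 1 of them (Irf1) by 2-fold or more in both, against 1.45% of 8187 genes, of which 43.8% were higher in both. At puberty 9 of 40 were higher by 2-fold or more, against 4.44% of 8400 genes, namely Ifih1, Ifit1, Ifit3b, Mx2, Isg15, Irf1, Gbp2, Irgm1 and Iigp1. Pubertal Fabp4 cells had the highest level of the 6 subsets for 34 of 44 members, and for 27 of these the counting interval lay clear of that of the next subset. In the adult they had the highest level for 10, all of them among the 34. These ranks were taken over the 44 members only, some under 10 CPM, so no share of all genes stands beside them.

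Irf1 stood at 937 CPM in pubertal Fabp4 cells against 346 CPM in the others, and at 609 against 279 CPM in the adult. Iigp1 stood at 1319 against 554 CPM and at 816 against 445.0 CPM, and Ifih1 at 386 against 147 CPM and at 287 against 184 CPM. Ifit2, Zbp1 and Bst2 were the lowest there relative to other cells, and for Bst2 the levels were 153 against 237 CPM and 138 against 174 CPM. In all, Bst2, Ifi27l2a, Zbp1, Irf7, Ifit2 and Trim30a were lower in Fabp4 cells in both libraries. Mural markers differed with this gate, and the 6 mural genes summed to 515 and 202 CPM in Fabp4 cells, beside 69.6 and 43.4 CPM in all Pdgfra+ cells. None of them was at 0 in either. Among them Myh11 stood at 256 and 95.7 CPM in Fabp4 cells, against 4.40 and 2.79 CPM in the other Pdgfra+ cells. The part of the mural genes in the result was not tested. In cells of 1 subset only, 17 members were 2-fold or more higher in pubertal Fabp4 cells, and 5 were when cells rich in Ifit, Oas and Mx genes were left out. The share of all genes was not computed in either setting, so these counts show only that the number depends on the cells kept.

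Pi16+ Dpp4+ cells had more of some members and less of others than the remaining Pdgfra+ cells, which include the Fabp4 cells outside this gate. Of 38 members, 10 were higher there in both libraries, beside 30.9% of 8283 genes. Bst2 and Ifi27l2a were higher by 2-fold or more in both, and 2 of 38 is near the 4.04% of all genes. Zbp1, Ifit2, Oas1a, Usp18, Irf7, Stat2, Trim30a and Psmb8 were higher by less in at least 1 library. Ifi27l2a stood at 501 CPM against 216 CPM in other Pdgfra+ cells at puberty and at 577 against 175 CPM in the adult. Zbp1 stood at 42.8 against 23.4 CPM and at 37.4 against 15.5 CPM. The other side held 23 of 38 members that were lower in both libraries, beside 50.4% of 8283 genes, and at puberty 10 of 39 were lower by 2-fold or more, against 7.94% of 8488 genes. Irf1 stood at 312 against 737 CPM at puberty and at 219 against 435 CPM in the adult, and Ifih1 at 118 against 354 CPM and at 155 against 242 CPM. Ifit3b was the lowest relative to other cells, at 12.5 against 42.5 CPM and 11.3 against 19.9 CPM. These cells thus had more of Ifi27l2a, Bst2 and Zbp1 and less of Irf1, Ifih1 and Ifit3b than the other Pdgfra+ cells of the same library.

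In Ccn5 cells the counts differed between the stages. At puberty 17 of 38 members were higher there than in other Pdgfra+ cells, beside 36.4% of 8143 genes, and in the adult 38 of 39 were, 3 of them (Ifit3, Gvin1 and Rsad2) by 2-fold or more, against 1.58% of 8715 genes, of which 37.8% were higher. The median log2 ratio was -0.04 at puberty and 0.61 in the adult. Ifit3 stood at 99.7 against 75.6 CPM at puberty and at 186 against 65.0 CPM in the adult, and Gvin1, a giant GTPase, at 19.2 against 9.10 CPM and at 17.8 against 6.65 CPM. Gvin1 passed the limit only through the Ccn5 cells. Bst2 stood at 283 against 225 CPM and at 297 against 163 CPM. Ddx60, Irf1 and Gbp3 were the lowest relative to other cells. Adult Ccn5 cells had the highest level of the 6 subsets for 27 of 44 members, 17 of them with a counting interval clear of the next subset. Members under 10 CPM are included, and no share of all genes was computed for this rank. The overlap of the Ccn5 gate with another differed between the stages. The gate for Thbs4 or Bmp5 was also met by 7.10% (5.43% to 9.08%) of pubertal and 43.1% (39.2% to 47.1%) of adult Ccn5 cells. Of all Pdgfra+ cells 4.91% and 14.8% met it. Thbs4 stood in Ccn5 cells at 62.9 and 1144 CPM, and in all Pdgfra+ cells at 45.6 and 214 CPM. Whether other cells or a higher Thbs4 level made this difference was not tested. With cells of the gate for Thbs4 or Bmp5 left out everywhere, a choice made after these values were seen, 39 members were higher in adult Ccn5 cells. The share of all genes was not computed for that choice.

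The other 2 subsets were cells with Gdf10 or Fmo2 and cells with Thbs4 or Bmp5. In cells with Gdf10 or Fmo2, 28 of 38 members were higher than in other Pdgfra+ cells in both libraries, beside 34.8% of 8041 genes, and none was by 2-fold, as were 0.609% of genes. Ifit3 was at 108 against 54.8 CPM and 79.5 against 59.7 CPM there, Iigp1 at 830.0 against 498 CPM and 604 against 395 CPM, and Ifi27l2a, Irf7 and Usp18 were lower than in other cells. In cells with Thbs4 or Bmp5, 19 of 38 members were higher than in other Pdgfra+ cells at puberty, beside 51.9% of 8368 genes. In the adult 26 of 38 were, beside 37.4% of 8695 genes. Ifit3b, Mx2 and Ifih1 were the highest relative to other cells, with Ifih1 at 224 against 170.0 CPM at puberty and 331 against 175 CPM in the adult. Zbp1, Psmb9 and Psmb8 were the lowest there. The 6 mural genes summed to 364 and 96.6 CPM in these cells, none at 0, and their part was not tested.

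Most members were lower in mural cells than in Pdgfra+ cells, though not all by much. Of 37 members, 33 were lower than in Pdgfra+ cells in both libraries and 18 by 2-fold or more in both, against 13.6% of 8909 genes, of which 38.2% were lower in both. Mx2 was among the nearer ones, at 71.0 against 84.8 CPM and 67.5 against 80.4 CPM. Zbp1 stood at 4.31 against 38.3 CPM and at 1.36 against 26.2 CPM. Ifi27l2a was at 48.2 against 435 CPM and 27.6 against 371 CPM, and Oasl2 at 14.3 against 105.0 CPM and 10.6 against 96.5 CPM. As a measure of free fibroblast RNA, Dcn, Lum, Col1a1 and Col1a2 stood in mural cells at 11.1% to 11.8% of their Pdgfra+ level in the pubertal library and at 4.27% to 4.65% in the adult one. At or below the top of that range were 5 members at puberty (Zbp1, Oas2, Oas3, Ifi27l2a and Trim30a) and 1 in the adult (Oas3). Their mural levels in that library cannot be told apart from free RNA. Pi16, another fibroblast gene, stood in mural cells at 7.26% and 8.72% of its Pdgfra+ level. In the adult Zbp1 at 5.19% and Ifi27l2a at 7.43% lay below that share. Their adult mural levels thus cannot be told apart from free RNA either. The cut took no account of counting intervals, and that of Oasl2 at puberty (ratio 0.107 to 0.172) reached into the range. Irf1 was higher in mural cells, at 814 against 410.0 CPM at puberty and 477 against 329 CPM in the adult. Isg15 stood at 181 against 139.6 CPM at puberty and at 84.5 against 87.2 CPM in the adult, and Parp9 at 75.1 against 95.8 CPM and at 95.4 against 71.6 CPM. Mural cells were shallower, with medians of 6334 and 6126 UMIs, and in the adult they carried epithelial markers at a summed 577 CPM, beside 29.6 CPM at puberty, whose part was not tested.

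The stage difference varied among the subsets. In Fabp4 cells 34 of 39 members were lower in the adult, beside 37.4% of 8580 genes, and 8 of them by 2-fold or more, against 2.11%, and the median log2 ratio was -0.53. The 8 were Ifit1, Ifit3b, Isg15, Usp18, Gbp2, Igtp, Irgm1 and Rsad2. Ifit1 stood at 417 and 149 CPM there, and Igtp at 41.7 and 14.4 CPM. In Ccn5 cells 28 of 39 members were higher in the adult, near the 66.1% of all 8547 genes, and 3 were by 2-fold or more, against 4.29%, with a median of 0.13 that equalled the median of all genes. Those 3 were Ifih1 at 129 and 267 CPM, Ifit2 at 19.8 and 49.2 CPM and Oas2 at 6.70 and 20.6 CPM. Oas2 entered this count only through the adult library, where it was high. Members were evenly split in cells with Thbs4 or Bmp5, 19 lower and 19 higher, beside 36.9% of genes lower. In cells with Gdf10 or Fmo2 33 of 39 were lower, beside 33.5% of genes, and in Pi16+ Dpp4+ cells 28 of 38, beside 32.5%.

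**Figure D3:**
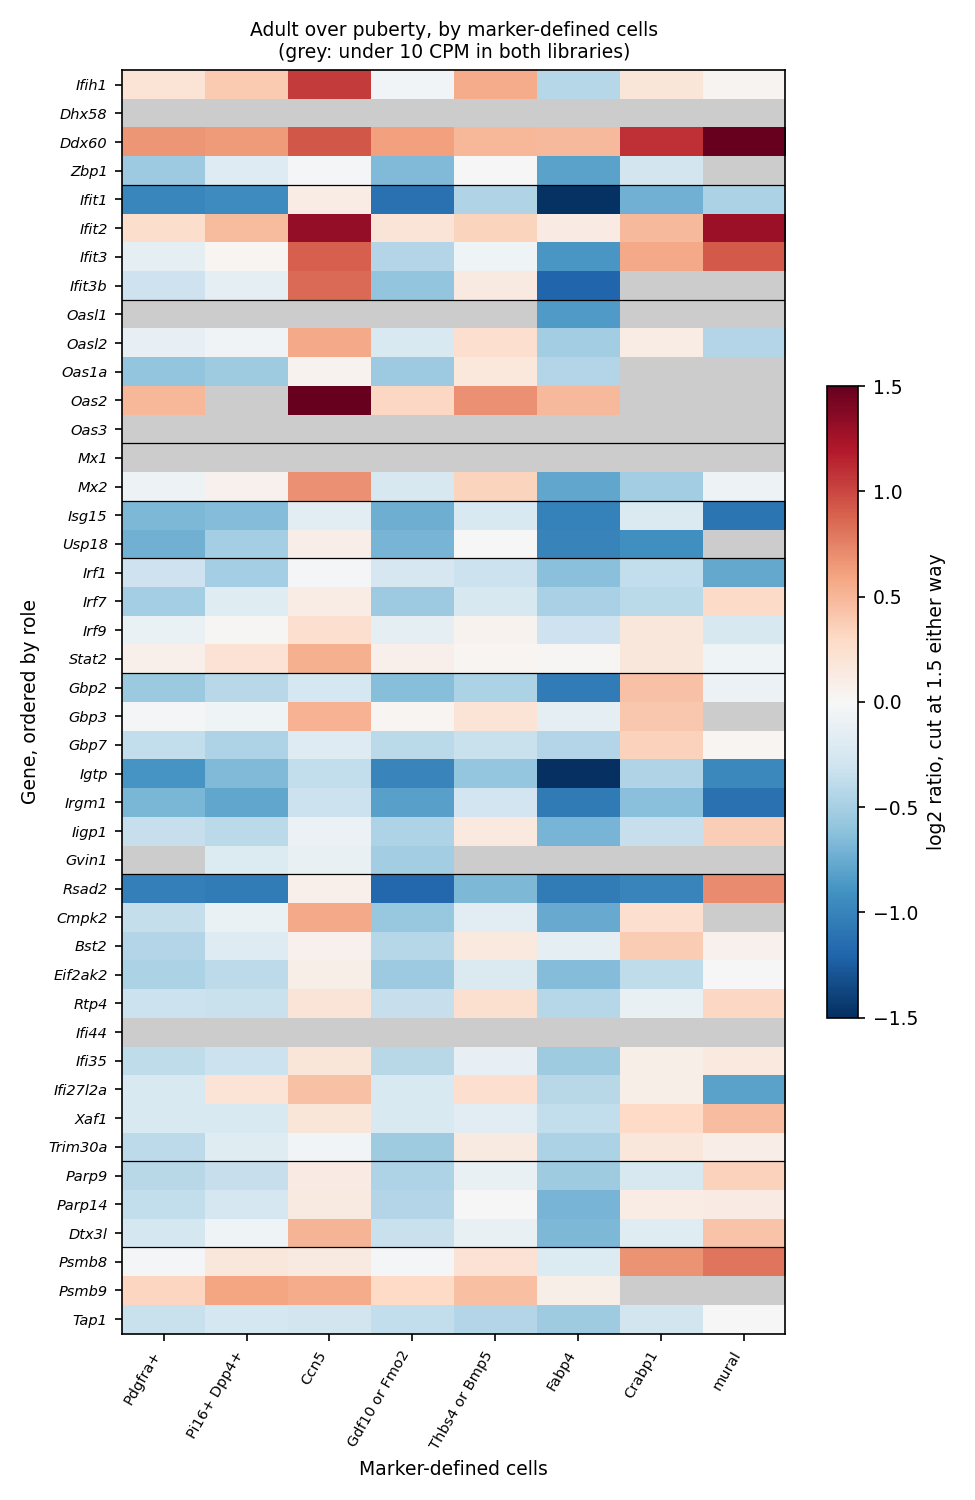
Log2 ratio of adult to puberty for each gene (rows, by role) in all Pdgfra+ cells and in each marker-defined group (columns), red higher in the adult, blue lower, grey under 10 CPM in both libraries. Blue predominates in the Fabp4 column, where 34 of 39 genes were lower, and red in the Ccn5 column, where 28 of 39 were higher, near the 66.1% of all genes.

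The 5 GTPase genes Gbp2, Gbp3, Gbp7, Igtp and Irgm1, many of which respond to interferon gamma, were compared as a sum with the 11 Ifit, Oas and Mx genes, which respond to type I interferon above all. In Pdgfra+ cells the GTPases summed to 462 CPM at puberty and 317 CPM in the adult, and the Ifit, Oas and Mx genes to 583 and 446 CPM. At puberty the ratio of the first to the second was 0.792 (0.786 to 0.798), and the adult ratio was 0.712 (0.706 to 0.719). Both sums were thus lower in the adult, the GTPase sum by more. With Iigp1 and Gvin1 added to the GTPases the ratios were 1.90 and 1.85, so that the stages lay closer together. Ifit1 alone gave 39.0% of the second sum at puberty and 25.8% in the adult. Without it the ratios were 1.30 and 0.960, a choice made after these values were seen.

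The ratio differed among the subsets, and between the stages most in Ccn5 cells. It was 0.914 (0.882 to 0.946) in pubertal Ccn5 cells and 0.528 (0.508 to 0.548) in adult ones, where the GTPase sum was 497 and 426 CPM while the Ifit, Oas and Mx sum was 544 and 806 CPM. In cells with Thbs4 or Bmp5 it was 0.709 and 0.571, and in Pi16+ Dpp4+ cells 0.815 and 0.676. Fabp4 cells had ratios of 0.797 and 0.811, while both of their sums were lower in the adult, the GTPases at 792 and 419.8 CPM and the Ifit, Oas and Mx genes at 993 and 517 CPM. Crabp1 cells stood near 1 at both stages, at 1.01 and 1.002, with intervals of 0.911 to 1.11 and 0.967 to 1.04. The highest ratio was that of pubertal mural cells, 1.33 (1.21 to 1.47), and adult mural cells had 0.878 (0.768 to 1.003).

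**Figure D4:**
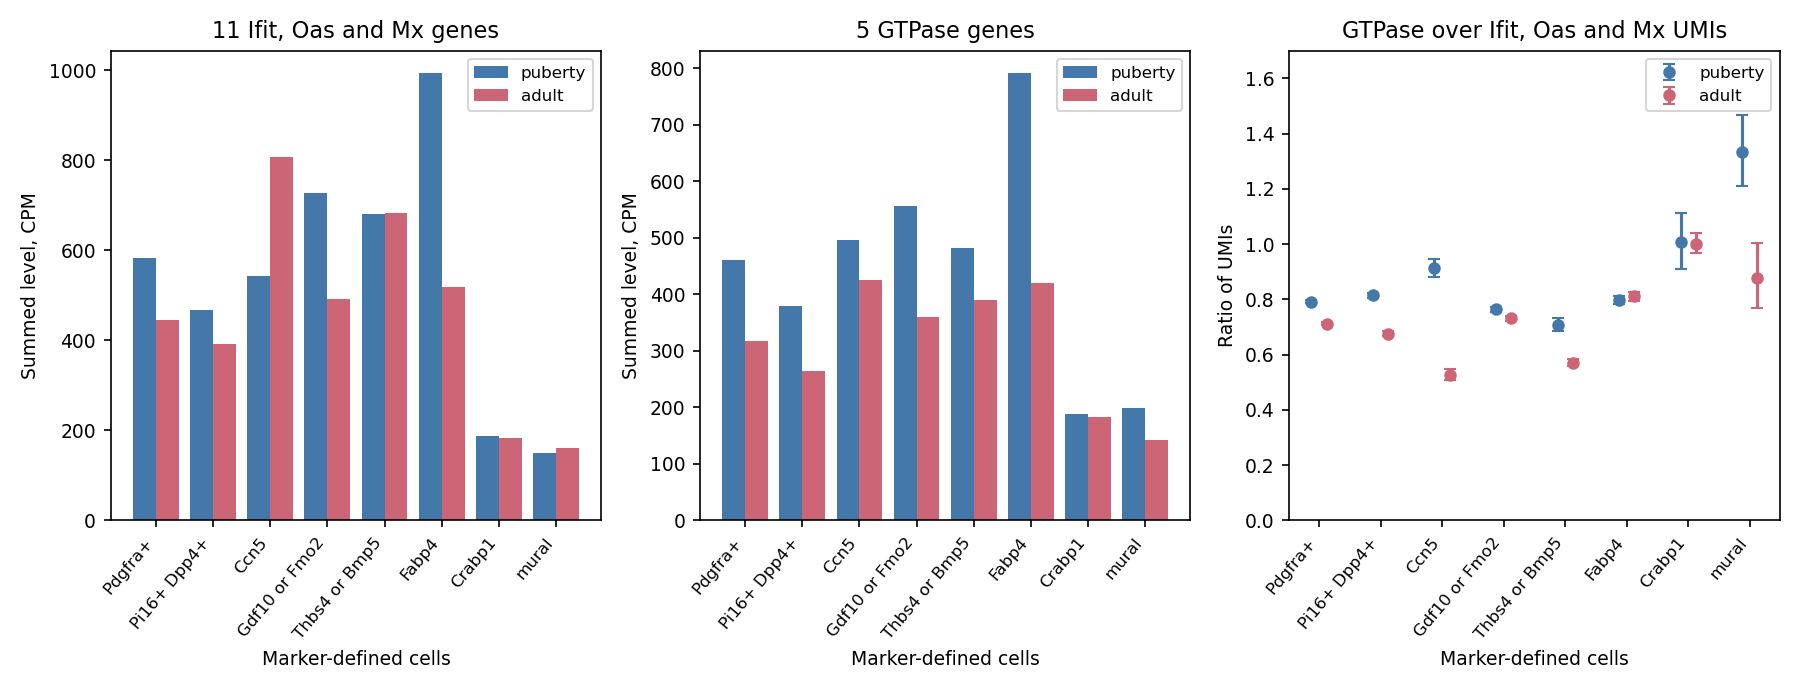
Summed level of the 11 Ifit, Oas and Mx genes (left, CPM) and of the 5 GTPase genes (middle, CPM), and the ratio of GTPase to Ifit, Oas and Mx UMIs (right), in Pdgfra+ cells and each marker-defined group at puberty (blue) and in the adult (red), with 95% counting intervals in the right panel only. The Ifit, Oas and Mx sum was higher in the adult in Ccn5 cells, at 544 and 806 CPM, and lower in Fabp4 cells, at 993 and 517 CPM.

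The Ifit, Oas and Mx genes were unevenly spread over single cells, which are not replicates. To compare cells of unequal depth, each was thinned to 3000 UMIs, which left out 336 pubertal and 426 adult Pdgfra+ cells. No UMI of the 11 genes was seen in 53.4% of pubertal and 56.9% of adult Pdgfra+ cells, while at least 4 of the genes were seen in 5.27% (4.95% to 5.60%) and 4.16% (3.89% to 4.44%). Without thinning the share was 22.2% and 17.3%. The tenth of cells with most of these UMIs held 59.9% and 61.7% of them, against 46.8% and 50.1% for the GTPases and 32.3% and 30.5% for Pdgfra.

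These cells were not equally frequent in all subsets. The share was 10.6% (9.17% to 12.1%) in pubertal Fabp4 cells and 4.99% in adult ones, and 5.63% (4.15% to 7.44%) in pubertal Ccn5 cells and 11.3% (8.88% to 14.0%) in adult ones. It was 7.81% and 8.55% in cells with Thbs4 or Bmp5, and 3.90% and 3.35% in Pi16+ Dpp4+ cells. In Crabp1 cells it was 0.347% and 1.02%. Mural cells, whose levels of most of these genes were lower but which held Mx2 at 83.7% and 83.9% of the Pdgfra+ level, showed 0.413% (0.0852% to 1.20%) and 1.60% (0.591% to 3.46%). The share in Crabp1 cells was no higher than that, and nothing is read from it.

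**Figure D5:**
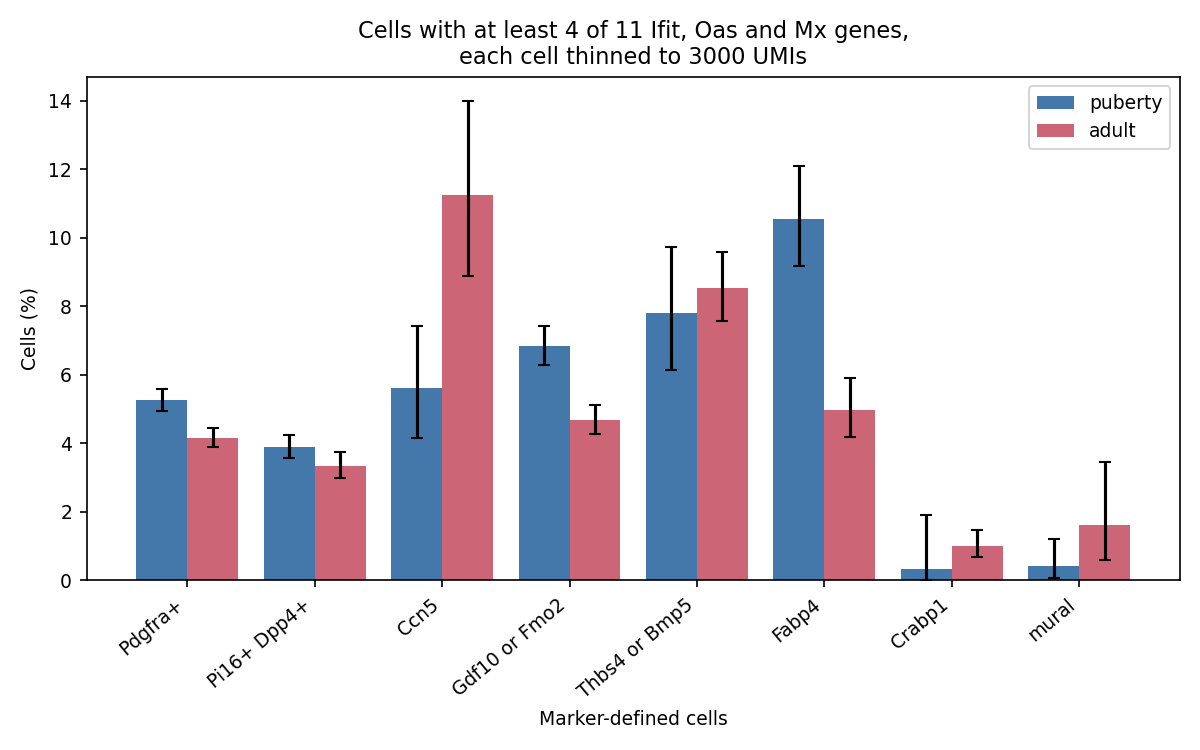
Share of cells (y axis, %) with at least 4 of the 11 Ifit, Oas and Mx genes after thinning each cell to 3000 UMIs, in Pdgfra+ cells and each marker-defined group (x axis) at puberty (blue) and in the adult (red), with exact binomial 95% intervals. The highest bars are adult Ccn5 cells at 11.3% and pubertal Fabp4 cells at 10.6%.

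Members outside the 11 genes followed the same cells to different degrees. Of the UMIs of Rsad2, 41.7% at puberty and 53.2% in the adult lay in those 5.27% and 4.16% of Pdgfra+ cells, and of Isg15 26.2% and 28.8%. Bst2 gave 9.50% and 8.05%, Psmb8 7.72% and 7.50%, and Pdgfra, a gene of no such programme, 5.64% and 4.18%. Rsad2 and Isg15 were thus concentrated in cells with many Ifit, Oas and Mx genes, while the shares of Bst2 and Psmb8 were nearer to that of Pdgfra. Among thinned cells with Ifit1, Ifit3 was seen in 32.6% at puberty and 37.4% in the adult, against 4.78% and 6.15% of cells without it. Isg15 was seen in 51.8% and 45.1% against 13.0% and 9.96%, and Irgm1 in 59.4% and 51.8% against 23.3% and 16.2%. For Pdgfra the shares were 66.4% and 81.3% against 65.3% and 79.7%.

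The pathway that reads interferon was also measured, by a list of 11 receptors, kinases and regulators, 4 ligands and 36 other induced genes. Of the 9 receptors, kinases and regulators at 10 CPM or more, 4 were higher and 5 lower in the adult. Of 31 other induced genes 13 were higher and 18 lower. Beside these, 67.2% of 8645 genes were higher and 32.8% lower. The interferon gamma receptor chains had the highest ratios, Ifngr2 at 48.8 and 85.2 CPM (ratio 1.75) and Ifngr1 at 104 and 181 CPM (ratio 1.74). The next was Gbp9, at 7.96 and 11.7 CPM (ratio 1.47), which reached 10 CPM only in the adult library. Cxcl10, a chemokine that draws T cells, had the lowest ratio, 0.326, at 547 and 179 CPM. Socs1, the feedback inhibitor of these kinases, was at 214 and 88.8 CPM (ratio 0.415), and Ifi205, a nuclear DNA-binding protein, was at 2260 and 1257 CPM (ratio 0.556). The ligands themselves were near 0: Ifnb1 gave 7 and 6 UMIs, Ifng 27 and 14, Ifnk 1 and 1, and Ifne 0 in both, which allows up to 0.0127 and 0.0121 CPM.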

How the data were processed

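The authors made 10x Genomics 3′ libraries from sorted stroma and deposited filtered matrices of raw UMI counts, made with Cell Ranger 8.0.1 on mm10 per the labels (the submitters' processing notes). The counts were used as deposited. Here each cell kept had at least 500 genes and at most 10% mitochondrial UMIs, and counts were summed per gene, stage and marker-defined group and divided by the summed UMIs (CPM). Doublets stayed in the values reported. An alternative removed 1947 and 2199 cells of highest gene number or Scrublet score (scanpy 1.11.5), whose own threshold marked 2.17% and 3.17%. Ratios carry conditional binomial intervals, levels exact Poisson and shares exact binomial (Clopper-Pearson) ones. The ratio intervals were checked on simulated counts drawn from the same counting model. That check could not show spread between cells, and UMIs concentrated in few cells make the intervals of levels and ratios too narrow for it. Cells were thinned without replacement, and edgeR 4.0.16 gave TMM factors (0.952 and 1.05). With 1 library per stage no test was run.

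The members and lists were chosen with earlier results of these data known. Named were the 5 highest and 5 lowest ratios of adult to puberty among members at 10 CPM or more, the most abundant member of each group, and per subset the 3 highest and 3 lowest by mean log2 ratio over both libraries. The pathway list was named by its 3 highest and 3 lowest ratios. A gene of that list is not reported here. Genes with near-identical copies (Ifit3 and Ifit3b, Oas1a, Gbp3 and Gbp7) may share reads, and Mx1 carries a deletion in this strain.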

Additional observations from a re-analysis of the deposited data

Results flagged for a closer look

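The 11 Ifit, Oas and Mx genes differed in direction between subsets. Their summed level in the adult was 1.48 times that of puberty in Ccn5 cells (1.44 to 1.53), whereas it was 0.838 times in Pi16+ Dpp4+ cells (0.828 to 0.847), 0.676 times in cells with Gdf10 or Fmo2 and 0.521 times in Fabp4 cells. With 1 library per stage the difference between subsets was not tested, and 98.2% and 96.8% of Ccn5 cells also met another gate. In Ccn5 cells outside the gate for Thbs4 or Bmp5, 759 at puberty and 354 in the adult, the ratio was 1.43 (1.38 to 1.49).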

How the results depend on the processing

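No paired analysis was possible because each stage has 1 library and no test was run. The median log2 ratio of adult to puberty over the members was -0.49 with TMM scaling, -0.37 as a mean of CPM per cell, with at least 2 Pdgfra UMIs or with a minimum of 50 CPM, -0.36 with thinned cells or no minimum, -0.31 without cells with at least 4 Ifit, Oas and Mx genes and -0.043 with equal weight per subset. Members 2-fold or more lower were 3 with TMM, 0 with doublets removed and 2 as a mean of CPM per cell, without the cells with 4 genes, with 2 Pdgfra UMIs or with equal weight without Ccn5 cells. Equal weight, which used only cells in no more than 1 subset, gave 21 members lower, and 2 higher by 2-fold or more. It turned Rsad2 to 0.010 and Ifi27l2a to 0.11 on the log2 scale. Without Ccn5 cells Ifih1 turned to -0.043 and Ifi27l2a to 0.088, while Rsad2 stayed below 0. Members 2-fold or more higher in pubertal Fabp4 cells were 5 without the cells with 4 genes and 17 in cells of 1 subset only. The alternatives counted members only, so no share of all genes stands beside these counts. The GTPase ratio in Pdgfra+ cells was 0.785 and 0.699 with doublets removed, 0.952 and 0.873 without the cells with 4 genes, 1.90 and 1.85 with Iigp1 and Gvin1 added, 0.854 and 0.766 without Ifit3b, Mx1 and Oas1a, and 1.30 and 0.960 without Ifit1. The log2 change of that ratio from puberty to adult, -0.15 in Pdgfra+ cells, was -0.13 without the cells with 4 genes, -0.036 with Iigp1 and Gvin1, -0.21 as a geometric mean and -0.43 without Ifit1. In Ccn5 cells it was -0.79, and -0.61 without the cells with 4 genes, -0.71 with Iigp1 and Gvin1, -0.98 without Ifit1, -0.87 with doublets removed, -0.66 with 1 more gate UMI and -1.11 in cells of 1 subset only. In Fabp4 cells it was 0.03, with an interval that held 0, and became -0.058 without the cells with 4 genes, -0.028 with 1 more gate UMI, 0.17 with Iigp1 and Gvin1, -0.21 as a geometric mean and -0.27 without Ifit1. In cells with Thbs4 or Bmp5 it was -0.31, and -0.029 with Iigp1 and Gvin1, -0.47 as a geometric mean and -0.52 without Ifit1. The share of cells with many of the 11 genes was 11.6% and 8.79% for at least 3 genes, 1.97% and 1.74% for at least 5, 9.94% and 7.62% at 5000 UMIs and 22.2% and 17.3% without thinning, each time higher at puberty. GAAA pairs 3 bases apart stood in 6 members, and 1 of TTC or GAA alone in all 32. The cause of these shifts was not tested. The alternatives without Ifit1, with equal weight without Ccn5 cells and without cells of the gate for Thbs4 or Bmp5 were chosen after seeing the data. Of the other values, 128 for these and the other summary results and 155 for single genes stayed within the counting interval or near the count, and 73 for single genes lay outside it in the same direction. Psmb8, at -0.034 with an interval that held 0, turned to 0.25 with equal weight and 0.084 without Ccn5 cells.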

Other observations

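The p200 genes, nuclear DNA-binding proteins induced by interferon, were abundant in fibroblasts and differed among themselves between the stages. In Pdgfra+ cells of puberty and adulthood Ifi205 stood at 2260 and 1257 CPM, Ifi203 at 849 and 486 CPM and Ifi204 at 907 and 705 CPM, while Ifi207 stood at 927 and 985 CPM. All 4 had less in Crabp1 cells, with Ifi207 at 354 and 499 CPM, and least in mural cells, with Ifi207 at 132 and 94.7 CPM.

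The MHC class I genes of the pathway list differed in direction. B2m, the light chain, stood at 1474 and 1581 CPM and the heavy chain gene H2-Q7 at 11.3 and 15.2 CPM, while the heavy chain genes H2-K1 and H2-D1 stood at 408 and 359 CPM and at 587 and 541 CPM. Nlrc5, the factor that turns on these genes, stood at 71.0 and 39.5 CPM. Cxcl9, a chemokine induced by interferon gamma, stood at 163 and 99.2 CPM in Pdgfra+ cells and at 429.9 and 298 CPM in Fabp4 cells.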
